A study of Mus musculus with 4 samples.

Results

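Dopamine signalling genes are described here through 9 protein-coding genes out of the 21951 in the GENCODE M21 annotation of the mouse genome mm10. They are the dopamine receptor genes Drd1, Drd2, Drd3 and Drd4, the adenylyl cyclase gene Adcy5, the phosphatase inhibitor gene Ppp1r1b, the potassium channel gene Kcnj6, and the dopamine neuron genes Th and Slc6a3. They were chosen by name, and every N6-methyladenosine (m6A) peak that touches an exon of one of them was taken from both peak lists of the series. That gave 19 of the 38533 peaks of replicate 1 and 17 of the 30134 peaks of replicate 2. The samples were whole brains of 4-week-old C57BL/6J mice, which the design text of the series gives as Prrc2a flox/flox. No Cre driver, treatment or second genotype is named for them. The assay was m6A-seq, in which fragmented mRNA is pulled down with an antibody against m6A and sequenced next to RNA that skipped the antibody (input). There were 2 immunoprecipitation (IP) samples and 2 input samples, all of 1 group, so the design holds no contrast and no test was made. Nothing in the labels says that the IP replicates came from different animals, and with 2 of them each value is given per replicate in place of a mean and SD.

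Dopamine is made from tyrosine by tyrosine hydroxylase (Th) and DOPA decarboxylase, packed into vesicles, released onto neurons of the striatum and cortex, and taken back up by the dopamine transporter (Slc6a3). Receptors of the D1 class raise cyclic AMP and those of the D2 class lower it. Adenylyl cyclase 5 (Adcy5) is the main cyclase of striatal neurons, DARPP-32 (Ppp1r1b) is a substrate of protein kinase A that inhibits protein phosphatase 1 once phosphorylated, and Girk2 (Kcnj6) is a potassium channel that G proteins of the D2 class open. m6A is written cotranscriptionally on adenosines within a consensus named DRACH, most often as GGAC followed by a T, C or A, and it is known to gather near stop codons and in long exons. The demethylase Fto has been linked to dopamine signalling in mice, and mRNAs such as Drd3 and Kcnj6 were reported as depending on Fto for their methylation. The series holds no Fto mutant, so only the presence, place and strength of peaks can be read.

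The sequences below are examples of coding stretches of Drd1, Kcnj6, Adcy5 and Ppp1r1b where GGAC motifs lie inside peaks of both replicates. Other coding GGAC motifs of these mRNAs inside peaks of both replicates are not printed, among them a GGACC in exon 6 of Ppp1r1b. They were read from the GRCm38 genome, which has the chromosome sequences of mm10, and are written 5′ to 3′ on the strand of the gene. Each GGAC and the base after it is in capitals.
Drd1 coding exon, chr13:54052854-54053057, minus strand: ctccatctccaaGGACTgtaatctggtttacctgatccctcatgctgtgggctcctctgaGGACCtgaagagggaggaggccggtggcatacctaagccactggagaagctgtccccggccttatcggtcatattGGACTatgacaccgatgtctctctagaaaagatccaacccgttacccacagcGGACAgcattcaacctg
Kcnj6 exon 3, chr16:94832843-94833023, minus strand: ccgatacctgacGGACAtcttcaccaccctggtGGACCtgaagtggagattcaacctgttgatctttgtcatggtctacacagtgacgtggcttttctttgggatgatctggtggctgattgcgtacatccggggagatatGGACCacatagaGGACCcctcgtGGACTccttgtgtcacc
Adcy5 exon 1, chr16:35156616-35156786, plus strand: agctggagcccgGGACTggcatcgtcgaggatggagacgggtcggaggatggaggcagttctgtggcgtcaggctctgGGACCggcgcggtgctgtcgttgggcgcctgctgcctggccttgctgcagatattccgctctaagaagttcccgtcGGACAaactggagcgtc
Ppp1r1b exon 5, chr11:98355429-98355489, plus strand: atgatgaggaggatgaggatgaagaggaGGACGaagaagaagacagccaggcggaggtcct

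The Drd1 stretch holds 4 GGAC motifs in 204 nt, 2 of them GGACT, and ends within the stop codon. The Kcnj6 stretch holds 5 in 181 nt, 1 of them GGACT, and the Adcy5 stretch 3 in 171 nt, 1 of them GGACT. The Ppp1r1b window holds 1 motif, a GGACG within a run of codons for acidic residues. The base after this GGAC is not the T, C or A of the consensus.

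Exonic peaks were listed for 6 of the 9 genes in replicate 1, where 54.4% of all protein-coding genes had one. Replicate 2 had them for 5 of the 9, against 49.5% of all genes. Peaks that overlapped between the replicates, called shared here, were found for 5 of the 9, against 45.5% of all protein-coding genes, so the count for the 9 lies near that of genes in general. The genes with a shared peak were Drd1, Drd2, Adcy5, Ppp1r1b and Kcnj6. Slc6a3 had a peak in replicate 1 and none in replicate 2. Drd3, Drd4 and Th had no exonic peak in either list.

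The stretch of genome that a peak of each replicate has in common is called an interval. The 5 genes held 16 shared intervals, 5 in Adcy5, 4 in Kcnj6, 3 in Ppp1r1b and 2 each in Drd1 and Drd2. Of the exonic peaks of the 9 genes, 16 of 19 in replicate 1 and 14 of 17 in replicate 2 were shared, or 84.2% and 82.4%. Among all exonic peaks these shares were 66.9% and 76.9%. The strength of a peak is given as Enrichment, which is IP signal divided by input signal on a linear scale. The median Enrichment of the shared peaks of the 9 genes was 3.38 in replicate 1, with a range from 1.83 to 6.03, and 2.54 in replicate 2, with a range from 1.88 to 4.12. The medians of all shared exonic peaks were 2.98 and 2.31. The peaks found in 1 list ran from 1.95 to 2.82 in replicate 1 and from 1.18 to 1.63 in replicate 2.

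**Figure D1:**
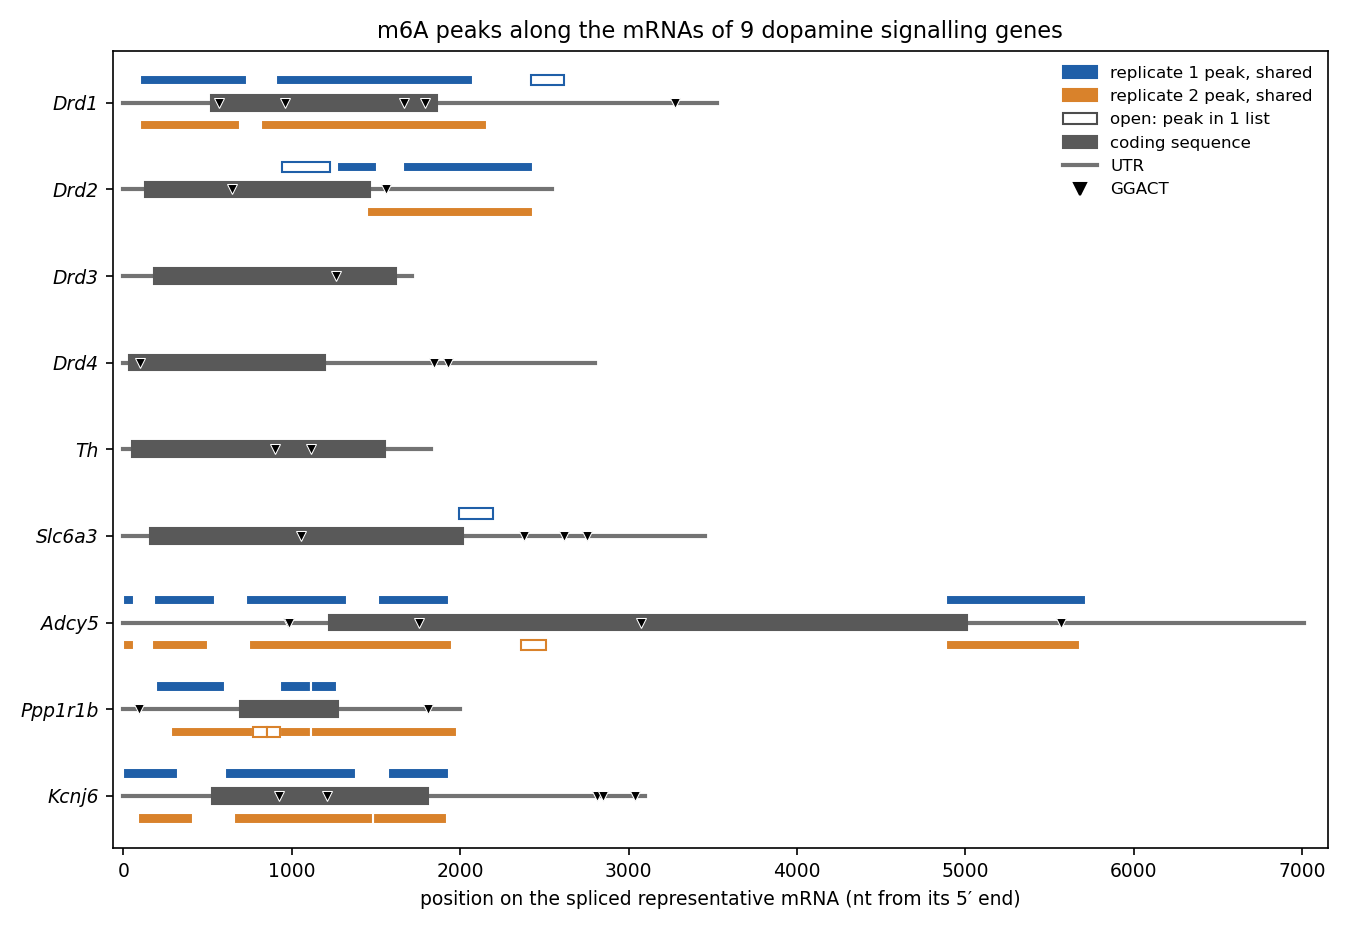
Peaks of replicate 1 (above each line) and replicate 2 (below) along the spliced representative mRNA of each gene, with the x axis in nt from the 5′ end. Filled bars are peaks that overlap a peak of the other replicate, open bars are peaks of 1 list, the thick grey part is the coding sequence, the thin part is UTR, and triangles mark GGACT. Peaks in different exons that meet at a splice junction are parted by a white line, and peaks outside these exons are not drawn. Drd3, Drd4 and Th have no bars.

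Replicate 1 gave the higher Enrichment in 13 of the 16 intervals. Where each interval was counted once with its best partner peak, it did so in 12 of 14 pairs (85.7%), and the share among all 21518 exonic pairs was 78.1%. The ratio of replicate 1 to replicate 2 ranged from 0.595 to 2.44 over the 16 intervals with a median of 1.32, and the median over all exonic pairs was 1.29. Intervals that differ by less than such ratios therefore differ by no more than the replicates did. The lists carry neither reads nor depth, so no counting error can be given for any peak.

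Drd1 carried the strongest shared interval of the 9 genes, judged by the lower of the replicate values. It encodes the D1 receptor, which stimulates cyclic AMP production in direct-pathway striatal neurons, and its whole coding sequence of 1341 nt lies in exon 2 of 2 on the minus strand of chromosome 13. The first peak covered most of the 5′ UTR and the start of the coding sequence. It lay at chr13:54053978-54054798 in replicate 1, with an Enrichment of 6.03, and at chr13:54054018-54054771 in replicate 2, with 3.17. Of this peak, 185 nt in replicate 1 and 158 nt in replicate 2 lie outside the exons of the representative mRNA. The second covered most of the coding sequence, the stop codon and the first part of the 3′ UTR, at chr13:54052638-54053808 with an Enrichment of 5.26 in replicate 1 and at chr13:54052551-54053894 with 4.12 in replicate 2. The order of the 2 intervals was therefore opposite in the 2 replicates. Among all exonic peaks of its list the second peak stood at the percentile of 92.3 in replicate 1 and 96.4 in replicate 2, and the first at 96.2 and 85.1.

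Peaks of both replicates covered 50.1% of the 3526 nt of the Drd1 mRNA, the highest share of the 9. They took in 10 of its 12 GGAC motifs and 4 of its 5 GGACT motifs. The remaining GGACT lies in the 3′ UTR, 1414 nt after the stop codon, with no peak in either list. A weaker peak in the 3′ UTR, chr13:54052094-54052293 with an Enrichment of 1.99, was in replicate 1 only and holds no GGAC.

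Drd2 encodes the D2 receptor, which inhibits cyclic AMP production and also acts as the autoreceptor of dopamine neurons, and it had its strongest signal in the 3′ UTR. In replicate 1 the peak at chr9:49407292-49408061 in exon 8 had an Enrichment of 3.50. In replicate 2 a longer peak with the same end, chr9:49407076-49408061, had 3.07. The values differed by a ratio of 1.14, among the closest pairs of the 16 intervals. Replicate 1 listed the stop codon region as a peak of its own, chr9:49406871-49407134 with an Enrichment of 1.83, and the long replicate 2 peak overlapped it by 59 nt. A peak in coding exon 7, chr9:49404735-49405040 with 2.82, was in replicate 1 only.

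Drd2 has only 2 GGACT motifs, so any contrast with Drd1 in motif rests on few sites. Peaks of both replicates held 6 of the 11 GGAC motifs of the Drd2 mRNA, all in the 3′ UTR and all followed by A or C, and neither of its 2 GGACT motifs. The GGACT 97 nt after the stop codon lay in the replicate 2 peak alone. In replicate 1 it fell in the gap between the peak that ends at chr9:49407134 and the peak that starts at chr9:49407292. The other GGACT, in exon 4, lay in no peak. Short windows are printed on the GGACT 97 nt after the stop codon and on a GGACA 792 nt after it, which lay in the peaks of both replicates. They are again from GRCm38, 5′ to 3′, with the motif in capitals.
Drd2 3′ UTR, chr9:49407179-49407203, plus strand, peak in replicate 2 only: aggcccagatGGACTcggccttctc
Drd2 3′ UTR, chr9:49407874-49407898, plus strand, peaks in both: agcagatgctGGACAgcctgggaag

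Drd3 and Drd4, which encode the other receptors of the D2 class, had no peak in any exon. Drd3 has 4 GGAC motifs in 1712 nt, 1 of them GGACT, and Drd4 has 12 in 2799 nt, 3 of them GGACT. With the longer RefSeq exons, which give Drd3 4773 nt and Drd4 3914 nt of exon, both still had no peak in either list. The nearest peaks lay in neighbouring genes, 39865 nt away in Qtrt2 for Drd3 in both lists, and 828 and 763 nt away in Deaf1 for Drd4. The GGACT of Drd3 lies in coding exon 7 and is printed as an example of the same 5 letters without a peak.
Drd3 exon 7, chr16:43821370-43821430, plus strand, no peak: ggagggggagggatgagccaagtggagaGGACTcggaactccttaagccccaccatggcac

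A gene without a listed peak may have been unmethylated, or its RNA may have been too scarce for a call. These lists hold no expression level, so that was not tested, and in whole brain fewer cells of a type and less RNA per cell cannot be told apart. Drd5, which encodes the second receptor of the D1 class, was in the pathway list used for context and its shared interval in the coding sequence had an Enrichment of 4.65 in replicate 1 and 5.12 in replicate 2. The lower of these values was above that of Drd1, but the ranges of the genes overlapped. The interval also overlaps an exon of Gm26560 on the other strand, and the peak lists carry no strand, so the RNA it came from cannot be told apart.

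**Figure D2:**
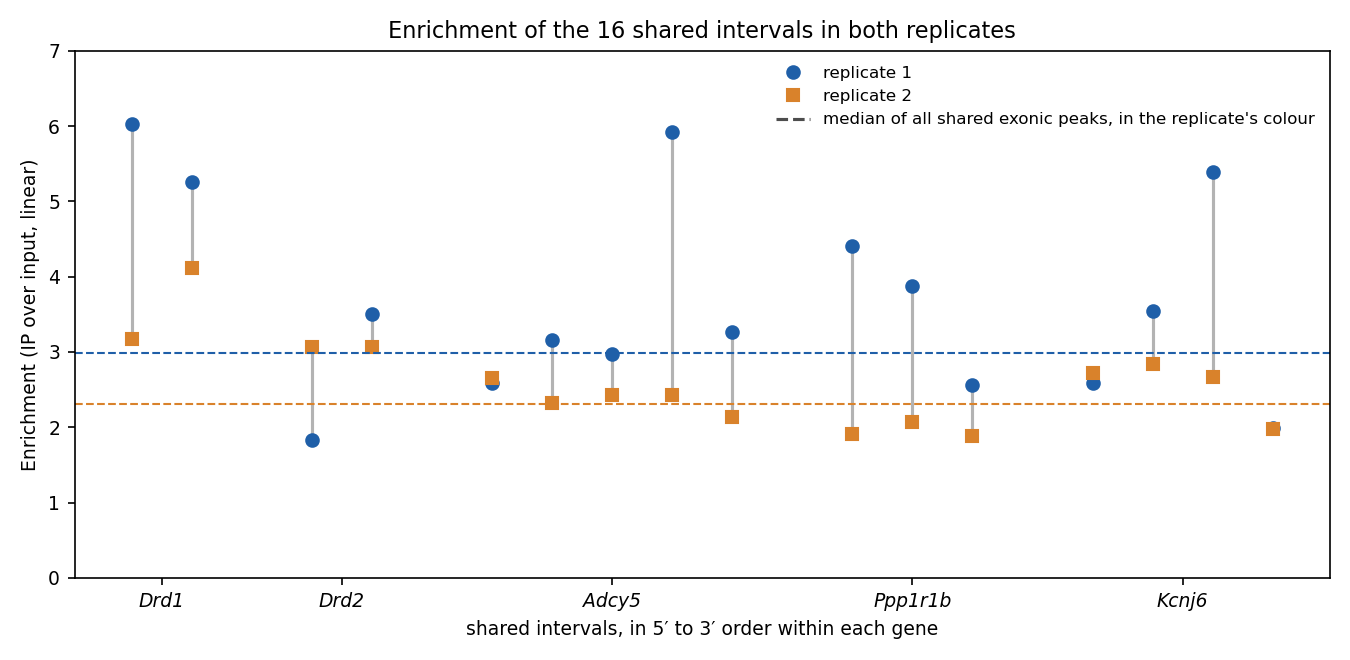
Enrichment (linear ratio of IP over input, y axis) of each of the 16 shared intervals in replicate 1 (circles) and replicate 2 (squares), in 5′ to 3′ order within each gene (x axis), with the medians of all shared exonic peaks as dashed lines. Both Drd1 intervals lie above both medians, and replicate 1 is the higher in 13 of the 16. Where 1 peak of replicate 2 overlaps 2 peaks of replicate 1 (Drd2, Adcy5), its value is drawn at both.

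With an overlap of 1 bp and GENCODE exons, Adcy5 had the most shared intervals of the 9 genes, 5 against 4 in Kcnj6. With an overlap of at least 50% it had 3 against 4 in Kcnj6, and with RefSeq exons 5 against 7. Of the 5 intervals of Adcy5, 4 lay at the 5′ end of the mRNA. All 4 touch exon 1, which on the plus strand of chromosome 16 holds the whole 5′ UTR of 1222 nt and the start of the coding sequence. The first lies across the annotated gene start, with 423 nt of the replicate 1 peak and 359 nt of the replicate 2 peak upstream of it. Its Enrichment was 2.59 in replicate 1, chr16:35154454-35154939, and 2.65 in replicate 2, chr16:35154518-35154937. In the middle of the 5′ UTR, chr16:35155060-35155417 had 3.15 in replicate 1 and chr16:35155046-35155379 had 2.32 in replicate 2.

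Around the start codon of Adcy5 the replicates drew different borders. Replicate 1 listed chr16:35155603-35156203 with an Enrichment of 2.98 and chr16:35156388-35156808 with 5.92. Replicate 2 listed 1 peak over both, chr16:35155620-35156825, with 2.43. The second of the replicate 1 peaks was the strongest of Adcy5 in that list, at the percentile of 95.9 among exonic peaks, and it lies over the coding stretch printed above. Its ratio of 2.44 between replicates was the widest of the 16 intervals, so the strength of this site is the least certain of the set. Near the stop codon, in exon 21, chr16:35303613-35304445 had 3.26 in replicate 1 and chr16:35303613-35304410 had 2.13 in replicate 2. A peak at exon 2, chr16:35248751-35249049 with 1.63, was in replicate 2 only. Of the 33 GGAC motifs of the Adcy5 mRNA, 14 lay in peaks of both replicates, as did 4 of its 5 GGACT motifs.

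Ppp1r1b had 3 shared intervals, each of which was weak in replicate 2. In the 5′ UTR, chr11:98348595-98349008 had an Enrichment of 4.41 in replicate 1 and chr11:98348688-98349271 had 1.91 in replicate 2. At coding exon 5 the values were 3.87 for chr11:98355240-98355635 and 2.07 for chr11:98355216-98355641. Of these peaks, 213 and 243 nt lie outside the exons of the representative mRNA. At exons 6 and 7 the values were 2.56 for chr11:98356652-98357065 and 1.88 for chr11:98356706-98357774, with 258 and 204 nt outside those exons. All 3 replicate 1 values lay above all 3 replicate 2 values. Replicate 2 covered more of the mRNA, 84.7% of 2001 nt against 37.6% in replicate 1, because it also listed chr11:98350428-98350907 with 1.42 and chr11:98351142-98351499 with 1.18 and a longer last peak. These last values are the lowest of all peaks in the 9 genes. The peaks over exons 2 to 5 also overlap exons of 1700003D09Rik on the other strand. Peaks of both replicates held 6 of the 12 GGAC motifs of Ppp1r1b and neither of its 2 GGACT motifs.

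Kcnj6 had peaks in each of the replicates at the 5′ UTR, in the coding sequence and at the stop codon. The 5′ UTR peak was chr16:94997371-94997753 with an Enrichment of 2.59 in replicate 1 and chr16:94997287-94997612 with 2.72 in replicate 2. The coding peak in exon 3, chr16:94832399-94833175, had 3.55 in replicate 1, and chr16:94832299-94833119 had 2.84 in replicate 2. Its interval holds 9 GGAC motifs, more than any other of the 16, 5 of them in the stretch printed above. The peak over the stop codon in exon 4 had 5.39 in replicate 1, chr16:94762231-94762597, and 2.66 in replicate 2, chr16:94762243-94762685, and its interval holds no GGAC. In replicate 1 the stop codon peak was therefore the stronger, while in replicate 2 the exon 3 peak was.

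The last shared interval of Kcnj6 lay in the last exon of another isoform, where the replicate 1 peak began 13081 nt downstream of the stop codon. The peaks chr16:94748781-94749279 and chr16:94748872-94749136 had Enrichments of 2.00 and 1.98, and they also overlap an exon of Gm41505 on the other strand. Between and beyond these exons both replicates listed 3 more overlapping peaks that touch no GENCODE exon. All of them fall in a predicted RefSeq exon of 17706 nt, chr16:94744980-94762685, that starts in the same last coding exon and runs on without a splice. The strongest of them, chr16:94759506-94760080 in replicate 1 and chr16:94759555-94759902 in replicate 2, had 5.52 and 3.56. In each replicate that value was above those of all 4 Kcnj6 peaks in GENCODE exons. Counted with RefSeq exons, Kcnj6 had 7 peaks in each list, and the 9 genes had 19 shared intervals in place of 16.

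**Figure D3:**
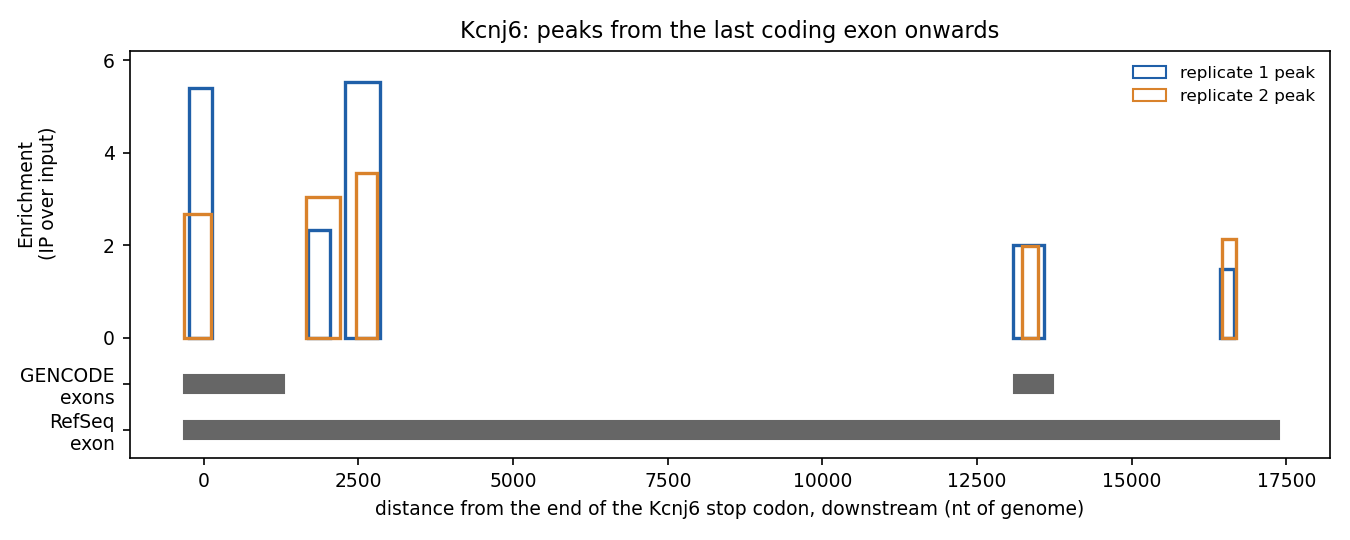
Kcnj6 peaks from the last coding exon onwards, drawn as boxes whose height is the Enrichment (y axis, linear ratio of IP over input) against the distance in nt of genome downstream of the stop codon (x axis), for replicate 1 and replicate 2. The bars below are the exons of GENCODE M21 and of the RefSeq model. Both replicates list 5 peaks here, 3 of them outside GENCODE exons.

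Th, the rate-limiting enzyme of dopamine synthesis, had no peak in either list. Its mRNA of 1829 nt has 13 GGAC motifs, 2 of them GGACT, and the nearest peak of any gene lay 91419 nt away in replicate 1. Slc6a3, the transporter that clears dopamine from the synapse, had 1 peak, in replicate 1, with an Enrichment of 1.95. It lies at chr13:73577210-73577409, across the stop codon and into the 3′ UTR in exon 15, and it is 200 nt long, with an Enrichment below the replicate 1 median of 2.74 for exonic peaks. None of the 17 GGAC motifs of Slc6a3 lay in peaks of both replicates. Both are genes of dopamine neurons. How much of their RNA the samples held is not known from these lists, and its part in the missing peaks was not tested.

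The place of the intervals along the mRNA was read from the 14 whose midpoint falls in an exon of the representative transcript. The midpoint lay in the 5′ UTR in 5 of them (35.7%), where 9.26% of all 19713 such intervals did. This count was made after the positions had been seen, and its 5 intervals come from 4 genes. These genes also have long 5′ UTRs, with 518 nt in Drd1, 528 nt in Kcnj6, 690 nt in Ppp1r1b and 1222 nt in Adcy5, while the median of genes with a shared peak was 188 nt and 12.0% of them exceeded 500 nt. The antibody also binds the dimethylated adenosine next to the cap, so at the first bases of an mRNA the marks cannot be told apart. The midpoint lay in the 3′ UTR in 3 of the 14 intervals, against 28.9% of all intervals. It lay in the coding sequence in 6 of the 14. Of all intervals, those outside the 9.26% in 5′ UTRs and the 28.9% in 3′ UTRs lay in the coding sequence, which is most of them.

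The midpoint lay within 200 nt of the stop codon in 3 of 14 intervals (21.4%), one each in Drd2, Kcnj6 and Ppp1r1b, and in 22.9% of all intervals. The count is not stable, being 1 of 11 with Enrichments of at least 2 in both lists (26.4% of all), 1 of 10 with an overlap of at least 50% (24.0% of all) and 6 of 14 within 400 nt (35.5% of all). GGACT, searched on the strand of the gene, stood in the central 200 nt of 4 of 14 (28.6%), against 27.5% of all. It stood in 1 of 10 with an overlap of at least 50%, and in 1 of 14 in the central 100 nt (15.8% of all). Over their full length 6 of the 14 held a GGACT, against 43.1% of all intervals. In the 5 mRNAs with shared peaks, 46 of 87 GGAC motifs (52.9%) lay in peaks of both replicates, which covered 37.2% of the bases. Over 9673 genes with such peaks the shares were 28.4% of motifs and 20.1% of bases. The intervals of the 9 genes were somewhat long and rich in G and C, with a median length of 408 nt against 338 nt and a median GC content of 59.1% against 53.5%. GC content ran from 47.5% in the Drd1 coding interval to 74.8% at the start of Adcy5.

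Genes were ordered by their strongest shared interval, taken as the one with the highest value of the lower replicate. Of 9987 protein-coding genes with a shared peak, Drd1 ranked 561, Drd2 3055, Kcnj6 4093, Adcy5 5325 and Ppp1r1b 7771. The median of this value over all genes was 2.65. At these intervals, in GENCODE exons, Drd1 was above the other 4 in both replicates. Drd2 with 3.50 and 3.07, Kcnj6 with 3.55 and 2.84 and Ppp1r1b with 3.87 and 2.07 had overlapping ranges and changed places between replicates, so their order is not resolved by these data. The ranks rest on GENCODE exons. With the RefSeq exon the strongest Kcnj6 interval, 5.52 and 3.56, was above those of Drd2 and Ppp1r1b in both replicates, and above Drd1 in replicate 1 only. Adcy5 with 2.59 and 2.65 lay within the range of Ppp1r1b. Of the 420 nt of this Adcy5 interval, 359 nt lie upstream of the annotated gene start.

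**Figure D4:**
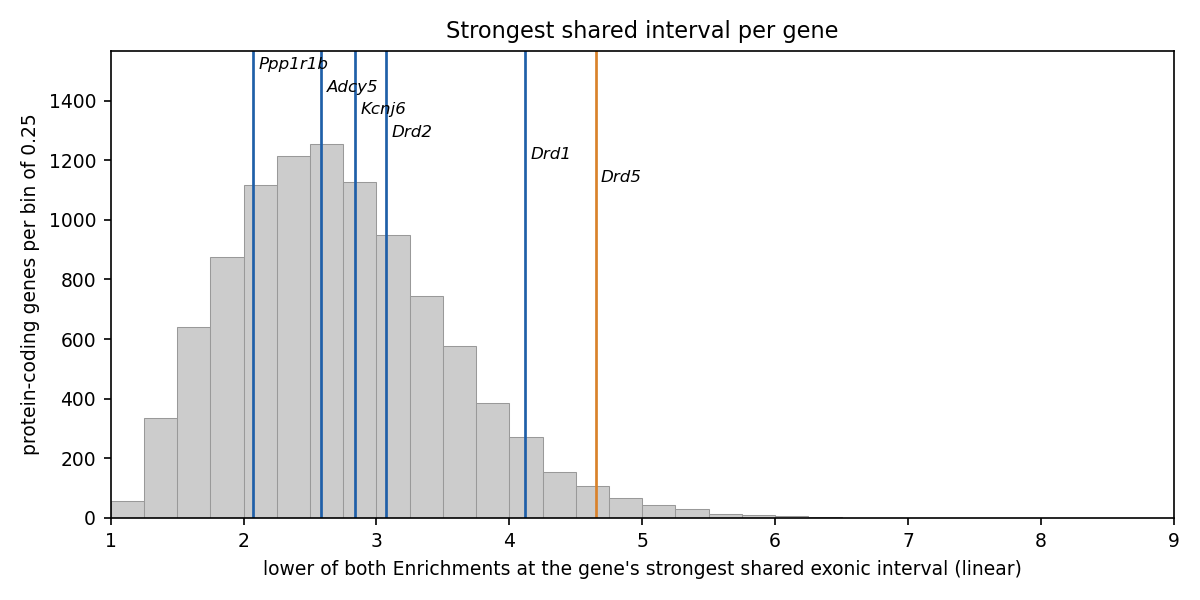
Number of protein-coding genes (y axis) by the lower of both Enrichments at the strongest shared interval of the gene (x axis, linear, bins of 0.25), over 9987 genes. Vertical lines mark the 5 dopamine signalling genes with a shared peak and, in orange, Drd5; Drd1 at 4.12 and Drd5 at 4.65 lie in the upper tail.

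A list of 90 further genes of the pathway gave the context. Of them 70 (77.8%) had a shared exonic peak, against the 45.5% of all protein-coding genes given above. That share counts genes whatever their expression in brain, and markers of brain cell types each had a shared peak in 5 of 5 genes. Whether the higher share of the list goes beyond that of genes expressed in brain was not tested. The groups of the list differed. Among 10 genes for synthesis, storage and breakdown of dopamine, 2 had a shared peak. These were Spr, an enzyme of the tetrahydrobiopterin cofactor that Th needs, with 3.13 and 2.15 in the 3′ UTR, and Maob, a monoamine oxidase of the mitochondrial membrane, with 3.38 and 2.03 in the 5′ UTR. Replicate 1 listed peaks for 7 of the 10, against 54.4% of all protein-coding genes, and replicate 2 for 2, against 49.5%.

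The genes of that group with a peak in replicate 1 only included some with high values. Slc18a2, the vesicular monoamine transporter, had 5.50, and Ddc, DOPA decarboxylase, had 4.01. The oxidase gene Maoa had 2.81 at its strongest, and Dbh, which turns dopamine into noradrenaline, had 2.20. The cofactor enzymes Gch1, Pts and Qdpr had no peak in either list. Slc6a3 showed the same pattern, with a peak in replicate 1 and none in replicate 2, and what set it was not tested. Transcription factors of dopamine neurons had a shared peak in 4 of 9, with none in either list for Pitx3, Lmx1a, Lmx1b, Foxa1 and Foxa2. En2, a homeobox factor of midbrain neurons, had the strongest of the group, 7.12 and 3.82 in its coding sequence.

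The cyclase family of Adcy5 was listed throughout, with a shared peak in 7 of 7 other genes. Adcy9 had 5.53 and 3.49 in the coding sequence, Adcy1 5.31 and 3.20 in the 3′ UTR, and Adcy6 5.84 and 2.83 in the 3′ UTR. The lower of both values was smaller in the rest. Adcy2 had 3.66 and 2.16, Adcy3 3.26 and 2.07, Adcy8 3.42 and 1.98, and Adcy7 1.83 and 1.98. Adcy1, Adcy6 and Adcy9 had higher values in both replicates than the strongest shared interval of Adcy5, which lies mostly upstream of the annotated gene start. In replicate 2 Adcy1, at 3.20 against 2.65, and Adcy6, at 2.83, differed from that interval by less than replicates commonly did. Adcy9, at 3.49, differed from it by about as much as replicates commonly did. The Adcy5 peak of 5.92 in replicate 1 is not at its strongest shared interval. It is therefore not set against these values, and the highest single peaks of the other cyclases were not compared.

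Among the partners of Kcnj6 in Girk channels, Kcnj3 (Girk1) had 6.10 and 4.23 in the 3′ UTR and Kcnj9 (Girk3) had 5.51 and 3.30 in the coding sequence. Both were above Kcnj6 at its strongest shared interval in GENCODE exons, 3.55 and 2.84, in each replicate. In replicate 2 Kcnj9 was above it by less than replicates commonly differed. Against the Kcnj6 interval in the RefSeq exon, 5.52 and 3.56, Kcnj3 was still the higher in each replicate and Kcnj9 the lower. All of these values differed by less than replicates commonly did, so that order is not resolved. The Kcnj9 interval also overlaps an exon of Gm36937 on the other strand. Kcnj5 (Girk4), which is best known from the heart, had no peak.

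G proteins and their regulators had a shared peak in 16 of 18 genes, the exceptions being Gng7 and Gnb5. Protein kinase A subunits, phosphatases, phosphodiesterases and their partners had one in 17 of 20, the exceptions being Prkaca, Prkacb and Ppp1cb. Striatal neuron genes had one in 14 of 15, without Tac1, and binding partners of the receptors in 7 of 7. The share of all protein-coding genes was 45.5%. Many of these peaks were weak. With Enrichments of at least 2 in both lists the counts of these groups were 10 of 18, 12 of 20, 13 of 15 and 4 of 7. For the whole list it was then 53 of 90. Of the 10 genes with the highest values outside the groups described by name, 4 are markers or regulators of striatal neurons. The 10 were drawn from groups of 9, 18, 20, 15 and 7 genes, of which the striatal group is that of 15. Foxp2, a transcription factor also known from speech disorder, had 5.70 and 6.71 and ranked 23 of all genes. Isl1, a factor that specifies direct-pathway neurons, had 3.95 and 4.05, and Foxp1 had 4.93 and 3.89. The midpoints of the Foxp2 and Foxp1 intervals lie outside the exons of the representative mRNA. Pdyn, the precursor of dynorphin in D1 neurons, had 5.50 and 3.63 in its coding sequence.

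The other high values in these groups belonged to En2, given above, and to Rgs2, Pde4b, Cdk5r1, Creb1 and Prkar1b. Rgs2, a regulator of G protein signalling, had 4.29 and 3.72, and Pde4b, a phosphodiesterase that degrades cyclic AMP, had 6.05 and 3.57. Cdk5r1 encodes the activator of Cdk5, a kinase that phosphorylates DARPP-32, and had 4.47 and 3.67. Creb1, the transcription factor that cyclic AMP activates, had 3.44 and 7.02, and Prkar1b, a regulatory subunit of protein kinase A, had 3.61 and 6.05. The Creb1 and Prkar1b values were the higher in replicate 2, as were those of Foxp2 and Isl1, unlike most pairs. The Prkar1b interval overlaps an exon of Gm15672 on the other strand, and its midpoint lies outside the exons of the representative mRNA.

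**Figure D5:**
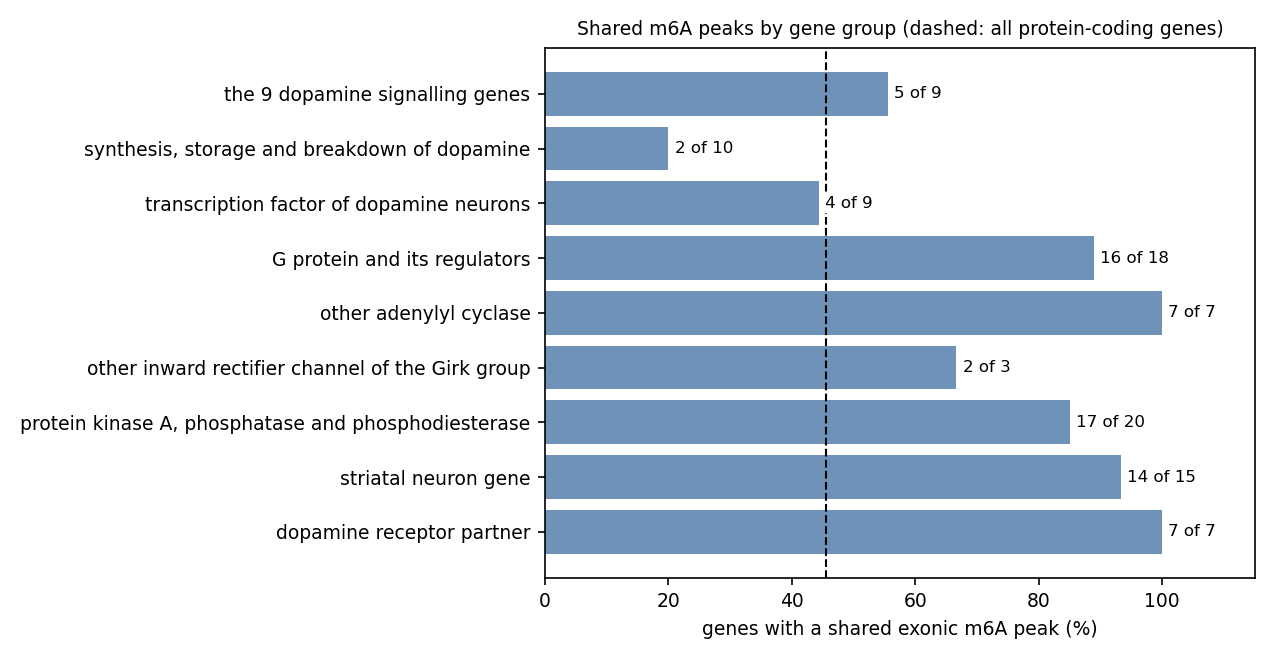
Share of the genes of each group with a shared exonic m6A peak (x axis, in percent, with counts beside the bars). The dashed line is the 45.5% of all protein-coding genes, whether or not they are expressed in brain. The group for synthesis, storage and breakdown of dopamine, at 2 of 10, lies below the line, and the G protein, cyclase, kinase, striatal and receptor partner groups lie above it.

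The label of whole brain was checked by the presence of peaks. Markers of neurons, astrocytes, oligodendrocytes and microglia each had a shared peak in 5 of 5 genes. None of the 5 skeletal muscle markers had a peak, and none of the 5 liver markers had a shared one, with 1 gene, Ttr, listed once in each replicate. Ttr is also made by the choroid plexus.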

How the data were processed

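The authors aligned reads to mm10 with TopHat (TopHat2 2.0.9 per the submitters' processing notes, while the study's methods give another version) and called peaks with MACS2 for each IP replicate against its own input, with duplicates kept. The deposited lists give each peak's position and its fold of IP signal against input signal, an untransformed ratio, with no counts, depth, strand or p-value. The depth is therefore unknown, and keeping duplicates can raise ratios built on few molecules. The input samples have no files used here.

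Peaks were assigned to a gene by overlap of 1 bp with any GENCODE M21 exon. The representative transcript was the one with the longest coding sequence. Peaks with at least 1 bp in common between the replicates were called shared, which bedtools 2.31.1 gave identically (23125 and 23189 peaks). Positions, motifs and ranks came from Python 3.11.15 with pysam 0.24.0 on GRCm38, and the steps were tested on simulated peaks. All 9 genes and all 90 list genes matched an annotated symbol. RefSeq exons and sequences are those of the GRCm38.p6 annotation.

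The 9 genes and the lists were chosen with earlier results of these data known. Genes named from the pathway list were Drd5, all genes for synthesis, storage and breakdown, all other cyclases and Girk channels, and the 10 others with the highest lower Enrichment. The values of 1 list gene are not reported here. Genes named as exceptions of a count, and the printed stretches of sequence, were chosen after their values were seen. No test was made. Alternatives were an Enrichment of at least 2, a 50% overlap, other exon rules, other windows and motifs, each replicate alone, and RefSeq exons.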

Additional observations from a re-analysis of the deposited data

Results flagged for a closer look

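The peaks of Kcnj6 that touch no GENCODE exon were set aside from the counts of the 9 genes and hold signal in both lists. In replicate 1 their Enrichments were 5.52 for chr16:94759506-94760080, 2.32 for chr16:94760316-94760671 and 1.49 for chr16:94745706-94745936. The overlapping peaks of replicate 2 had 3.56, 3.03 and 2.14. The first holds 3 GGAC motifs on the Kcnj6 strand in replicate 1 and 2 in replicate 2, and the second holds none in either. There is no input list to set a background, and whether the RNA belongs to a spliced Kcnj6 mRNA was not tested.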

How the results depend on the processing

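No paired analysis was possible because the results come from no test and the study has 1 group of IP samples. Of 47 alternative values for 10 results, 41 stayed within 1.5 times the main count or, for medians, within the spread between replicates. The 6 that moved were counts of intervals. The count of 3 of 14 intervals near the stop codon became 1 of 11 with Enrichments of at least 2 (26.4% of all intervals), 1 of 10 with an overlap of 50% (24.0%), and 6 of 14 with a window of 400 nt (35.5%). The count of 4 of 14 intervals with GGACT became 1 of 10 with an overlap of 50%, 1 of 14 in the central 100 nt (15.8% of all intervals), and 10 of 14 with GGAC (68.3% of all). Counts this small move by their construction. With 1 replicate alone the genes with a peak were 5 to 6 of 9, and 75 to 76 of the 90 pathway genes. The count of intervals with a midpoint in the 5′ UTR, 5 of 14, was 4 of 11 and 4 of 10 under the first pair of alternatives. This count and the RefSeq exons were chosen after seeing the data. Depth is unknown and limits every missing peak.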
